A study of Homo sapiens with 4 samples.

Results

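The stretch chr6:26000000-28500000 of GRCh37, in band 6p22, holds a large group of replication-dependent histone genes and then a row of zinc finger genes that encode SCAN and KRAB domains. Every CpG listed between these bases was a member, which gave 32224 of the 27710999 CpGs on autosomes and X. The first 5 kb boundary after the last histone gene, at base 27865000, divided the members into a histone part with 26536 CpGs and a zinc finger part with 5688 CpGs. The annotation lists 84 protein-coding genes here, which comprised 50 histone genes, 14 zinc finger or SCAN genes, 6 butyrophilin genes and 14 others. Families were set by symbol, and ZKSCAN8P1, listed as protein-coding, was counted among the others. Of the zinc finger genes, ZNF322, ZNF391 and ZNF184 lay among the histone blocks, and the other 11 lay in the zinc finger part.

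The libraries were made by EM-seq, an enzymatic form of methylation sequencing, from HEK293T, a cell line of human embryonic kidney, with 2 libraries of wild-type cells (WT) and 2 of cells without ZNF274 (ZNF274KO). The deletion was made by Cas9 with a pair of guides on either side of ZNF274, puromycin selection and sorting of single cells into clones, no agent was added for the comparison, and all libraries share the cell line. Whether the libraries of a group came from separate cultures or clones is not given in the sources used here, so p-values measure only the spread between libraries. In EM-seq an unmethylated cytosine is read as T and a methylated cytosine as C, so the share of C among reads at CpGs, in percent, was taken as the mCG level. All differences are ZNF274KO minus WT, in percentage points.

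ZNF274 itself, the target of the deletion, carried 5158 reads in WT 1 and 4274 in WT 2 over its 501 CpGs, against 0 in ZNF274KO 1 and 14 in ZNF274KO 2. Across the genome the libraries held 241598512 to 295114493 reads over CpGs, a read being counted at each CpG it covers. The 6p22 members held 413520 reads in WT 1 and 341076 in WT 2, against 325780 in ZNF274KO 1 and 330012 in ZNF274KO 2. Relative to the depth of its library, ZNF274KO 1 was the shallowest here. Of the members, 70.0% lay in a stretch of 50 bases that occurs once in the genome after conversion, and values at the others may mix copies.

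Histone proteins package DNA, and the replication-dependent histone genes, which have no introns in their classical form, are read during DNA replication from many near-identical copies. Their promoters are often shared by a pair of genes that point away from each other. KRAB zinc finger proteins bind DNA through their fingers and recruit repressors through the KRAB domain, and the SCAN domain joins such proteins to each other. ZNF274 carries both domains and is known for its binding at zinc finger genes, and methylation of CpGs near a start is generally linked to silence of the gene.

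Sequences of 300 bases are printed for the regions on which the results below turn. The first 3 are centred between the starts of divergent histone pairs, chosen after their values were seen because they stand at an intermediate, a high and a near-zero level. The last 2 are the most deeply read stretches of the tiles called higher in ZNF274KO. All are on the plus strand of GRCh37, and capitals mark the CpGs.
H2BC13 and H2AC13, chr6:27775680-27775979: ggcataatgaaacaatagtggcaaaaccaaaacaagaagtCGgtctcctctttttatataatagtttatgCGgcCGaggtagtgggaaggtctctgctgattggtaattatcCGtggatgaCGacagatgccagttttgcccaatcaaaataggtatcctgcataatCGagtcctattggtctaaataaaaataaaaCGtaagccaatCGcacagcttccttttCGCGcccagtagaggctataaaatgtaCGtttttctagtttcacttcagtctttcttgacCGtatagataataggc
H2AC14 and H2BC14, chr6:27782528-27782827: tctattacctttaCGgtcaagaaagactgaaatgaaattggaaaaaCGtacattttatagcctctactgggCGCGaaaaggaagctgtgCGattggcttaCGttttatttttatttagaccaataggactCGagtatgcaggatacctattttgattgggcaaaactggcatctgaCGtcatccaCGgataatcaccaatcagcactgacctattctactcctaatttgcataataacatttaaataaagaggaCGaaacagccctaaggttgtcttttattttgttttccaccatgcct
H2AC15 and H2BC15, chr6:27806089-27806388: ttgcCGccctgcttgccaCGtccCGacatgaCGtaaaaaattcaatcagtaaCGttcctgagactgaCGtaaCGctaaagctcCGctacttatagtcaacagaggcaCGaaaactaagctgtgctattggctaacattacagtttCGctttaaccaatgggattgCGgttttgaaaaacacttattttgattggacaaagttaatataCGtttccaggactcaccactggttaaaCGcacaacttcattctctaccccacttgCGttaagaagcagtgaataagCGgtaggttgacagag
tile at 27320001, chr6:27320372-27320671: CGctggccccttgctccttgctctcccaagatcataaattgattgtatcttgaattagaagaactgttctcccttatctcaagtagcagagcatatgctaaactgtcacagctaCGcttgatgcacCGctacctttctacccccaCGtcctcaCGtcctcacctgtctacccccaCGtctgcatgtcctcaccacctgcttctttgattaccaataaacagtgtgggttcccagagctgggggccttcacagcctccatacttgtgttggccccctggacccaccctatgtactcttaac
tile at 27385001, chr6:27389325-27389624: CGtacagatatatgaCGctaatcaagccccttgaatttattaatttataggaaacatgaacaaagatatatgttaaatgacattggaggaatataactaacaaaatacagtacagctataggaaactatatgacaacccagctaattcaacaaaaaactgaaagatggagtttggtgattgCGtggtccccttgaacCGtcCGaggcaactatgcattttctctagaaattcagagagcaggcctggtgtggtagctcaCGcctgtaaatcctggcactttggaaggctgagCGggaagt

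The window between H2BC13 and H2AC13, with 12 CpGs, was at 23.9% and 28.6% in the WT libraries and at 25.8% and 16% in the ZNF274KO libraries. The window between H2AC14 and H2BC14, with 10 CpGs, was at 91.8% and 90.9% in WT and at 88.7% and 90% in ZNF274KO. The 15 CpGs between H2AC15 and H2BC15 were at 0% in all 4 libraries, on 194 to 218 reads summed over CpGs. This allows a level of up to 1.38% to 1.55% (3 counts of the reads, for counting error only). A read is counted at each CpG it covers, so fewer molecules were seen. The limits given here and below are therefore too low, by an amount that was not tested. The first 2 windows share a run of 93 bases on opposite strands, while neither shares more than 12 bases in a row with the window between H2AC15 and H2BC15. Similar sequence thus stood at different levels. The groups overlapped in the H2BC13 and H2AC13 window, and in the H2AC14 and H2BC14 window ZNF274KO was slightly lower without overlap. The printed stretch of the tile at 27320001 was at 47.8% and 34.8% in WT and at 70.9% and 76.4% in ZNF274KO over 6 CpGs, none of which lay in sequence that occurs once. That of the tile at 27385001, whose 7 CpGs all lay in sequence that occurs once, was at 69.4% and 62.7% in WT and at 88.6% and 81.9% in ZNF274KO.

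The first question was whether the histone part and the zinc finger part, taken whole, differed between the groups. The histone part was at 61.0% in WT 1 and 60.6% in WT 2, against 61.0% in ZNF274KO 1 and 59.4% in ZNF274KO 2. The group means were 60.8% ± 0.285 and 60.2% ± 1.14 (SD, n = 2), and their difference, -0.625 points, lay within the SD of the ZNF274KO libraries (two-sided exact permutation test, p = 0.667, where 0.333 is the smallest that 2 against 2 libraries allow). The zinc finger part was at 61.6%, 62.1%, 62.0% and 60.03% in the same order. Its means were 61.9% ± 0.368 and 61.0% ± 1.39 (SD, n = 2), and its difference of -0.861 points did not exceed the SD of its ZNF274KO libraries either (exact permutation p = 0.667). In both parts the groups overlapped, with ZNF274KO 2 the lowest library. Without ZNF274KO 2 the differences became 0.179 and 0.120 points.

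Set against each other within a library, the zinc finger part minus the histone part was 1.07 points ± 0.653 in WT and 0.831 ± 0.250 in ZNF274KO (SD, n = 2). This is a difference of -0.236 points, within the SD of either group (exact permutation p = 1). The genome as a whole moved by -0.541 points and the rest of chromosome 6 by -1.21 points, both with overlapping groups. Relative to the rest of the chromosome the histone part moved by 0.584 points and the zinc finger part by 0.348 points, so the sign of these small differences depended on the reference.

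The histone genes lie in 3 blocks, and these differed among themselves. The first block, 269 kb with 29 histone genes, was at 59.0% and 59.3% in WT and at 56.9% and 56.6% in ZNF274KO. The difference of -2.40 points set the groups apart by more than their spreads of 0.234 and 0.207 points (SD, n = 2; exact permutation p = 0.333). Relative to the rest of chromosome 6 it was -1.19 points, with overlapping groups, and relative to the whole genome -1.86 points, with the groups apart. The second block, 21.7 kb with 5 histone genes around H2BC11 and H2BC12, had the lowest level of the blocks, at 28.9% and 31.3% in WT and at 27.4% and 26.2% in ZNF274KO. Its difference was -3.36 points with the groups apart (exact permutation p = 0.333), and -2.15 points relative to the rest of the chromosome, again with the groups apart. The last block, 86.4 kb with 16 histone genes, was at 63.4% and 61.9% in WT and at 62.0% and 62.9% in ZNF274KO, and there the groups overlapped. Between the first and second blocks lie 808 kb with the butyrophilin genes and ZNF322, at 62.7% ± 0.273 and 62.3% ± 1.39 (SD, n = 2). Between the second and last lie 660 kb with ZNF391 and ZNF184, at 61.2% ± 0.544 and 61.4% ± 1.69. The groups overlapped in both of these intervals.

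**Figure D1:**
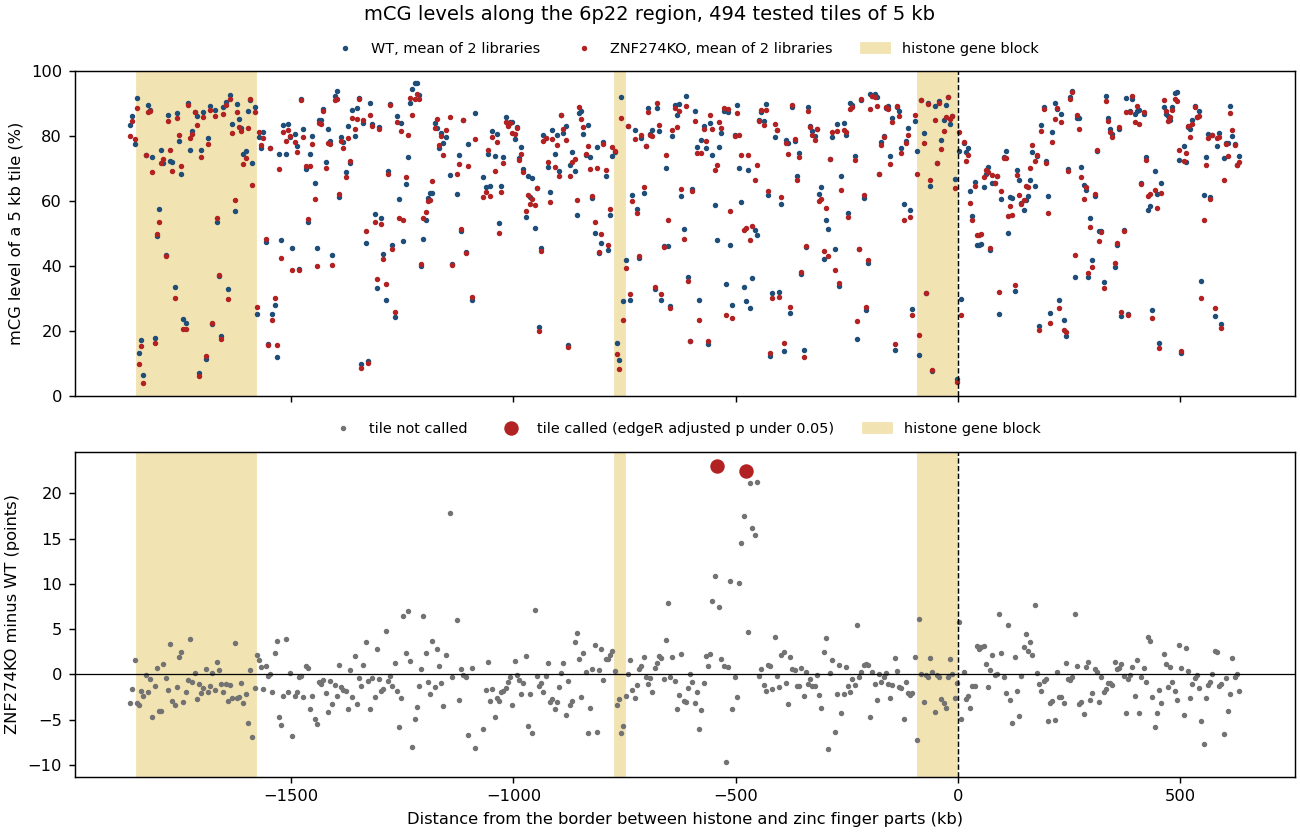
The mCG level of each of the 494 tested tiles of 5 kb (upper panel, group means in %) and the difference between the groups (lower panel, percentage points) are plotted against distance from the border between the histone and zinc finger parts in kb. Shaded bands are the 3 histone blocks, and the 2 tiles called by edgeR rise above the others at 22.96 and 22.4 points.

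Tiles of 5 kb were then compared to find local differences. Of 500 tiles 494 could be tested, with a median of 53 CpGs, and median reads per tile of 544 to 694 across libraries. The median tile was at 73.0% in WT 1 and 74.1% in WT 2, against 73.6% in ZNF274KO 1 and 71.5% in ZNF274KO 2, above the medians of 60.8% to 64.5% over all tiles of the genome. Tiles under 20% numbered 27, 29, 26 and 33 in the same order, and tiles over 80% numbered 173, 169, 171 and 159. Tiles over 80% thus made up 32.2% to 35.0% of the region, and tiles under 20% made up 5.26% to 6.68%. The median difference was -0.782 points over its tiles and -0.582 points over the 563537 tiles of the genome.

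In the quasi-likelihood test of edgeR, fitted over the whole genome with Benjamini-Hochberg adjustment, 2 of the 494 tiles were called higher at an adjusted p under 0.05 and 0 were called lower. Over the genome 0.473% of tiles were called higher and 0.0131% lower, so the 2 tiles are close in number to that background. At an unadjusted p under 0.05 there were 17 higher and 20 lower tiles, or 7.49%, close to the 6.52% of tiles in the genome. The groups did not overlap, with ZNF274KO the higher, in 59 tiles, or 11.9%, against 13.5% in the genome. With ZNF274KO the lower this held for 135 tiles, or 27.3%, against 22.3%. In the histone part the counts were 43 and 103 of 367 tiles and in the zinc finger part 16 and 32 of 127. None of the 127 tiles of the zinc finger part was called by edgeR, and 2 of them had an unadjusted p under 0.05.

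Both called tiles lay in the interval around ZNF391 and ZNF184, which are zinc finger genes without a SCAN domain. The tile chr6:27320001-27325000 overlaps the long non-coding RNA gene ENSG00000291112 and ends shortly before the zinc finger pseudogene ZNF204P, at chr6:27326031-27327633. Its 25 CpGs were at 47.1% in WT 1 and 48.8% in WT 2, against 69.7% in ZNF274KO 1 and 72.2% in ZNF274KO 2. Both ZNF274KO libraries were well above both WT libraries, with a rise of 22.96 points (edgeR adjusted p = 0.00962). Over the 18 of these CpGs in sequence that occurs once the rise was 20.8 points. The call was lost with limma (adjusted p = 0.173) and without ZNF274KO 1 (edgeR adjusted p = 0.0572) or ZNF274KO 2 (edgeR adjusted p = 0.0996), with rises of 21.7 points or more throughout.

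The tile chr6:27385001-27390000 overlaps no annotated gene and lies 13314 bases beyond the end of ZNF391. Its 32 CpGs were at 29.8% in WT 1 and 28.6% in WT 2, against 57.9% in ZNF274KO 1 and 45.4% in ZNF274KO 2. The groups did not overlap, and ZNF274KO 1 was the highest library. The rise of 22.4 points was called by edgeR (adjusted p = 0.0326) but not by limma (adjusted p = 0.402). Without ZNF274KO 1 it was 16.2 points and no longer called (edgeR adjusted p = 0.634).

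The rise was not restricted to a single tile. The 46.8 kb from the end of ZNF391 to the end of ZNF184, which point towards each other, was described as a whole after its tiles had been seen. Its 390 CpGs were at 55.2% in WT 1 and 57.1% in WT 2, against 71.8% in ZNF274KO 1 and 63.3% in ZNF274KO 2. The mean rose from 56.2% ± 1.38 to 67.6% ± 6.03 (SD, n = 2), a difference of 11.4 points with the groups apart, and 11.96 points over the 276 CpGs in sequence that occurs once. The difference was 7.15 points without ZNF274KO 1 and 15.7 points without ZNF274KO 2. Of the 8 tiles that lie wholly between these genes, in 7 the ZNF274KO libraries were higher without overlap. These same 7 had an unadjusted p under 0.05 in edgeR. Over the genome 13.5% of tiles were higher without overlap, and 18462 of 563537 were higher at an unadjusted p under 0.05. The interval was chosen by these values and its tiles share the 4 libraries. The 7 tiles therefore describe its extent and add no support. After the called tile, the tile at 27410001 had the largest difference, from 49.4% and 50% to 72.7% and 69.2% on 19 CpGs (21.3 points, edgeR adjusted p = 0.137). The tile at 27395001 was next, from 25% and 28.9% to 53.3% and 42.9% on 24 CpGs (21.1 points, edgeR adjusted p = 0.0889). ZNF274KO 1 exceeded ZNF274KO 2 in all 8 tiles. The rise ended before ZNF184, since the tile at 27415001, which lies across the end of ZNF184 and partly in the interval, was at 83.2% and 86.6% in WT and at 85.8% and 83.7% in ZNF274KO.

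**Figure D2:**
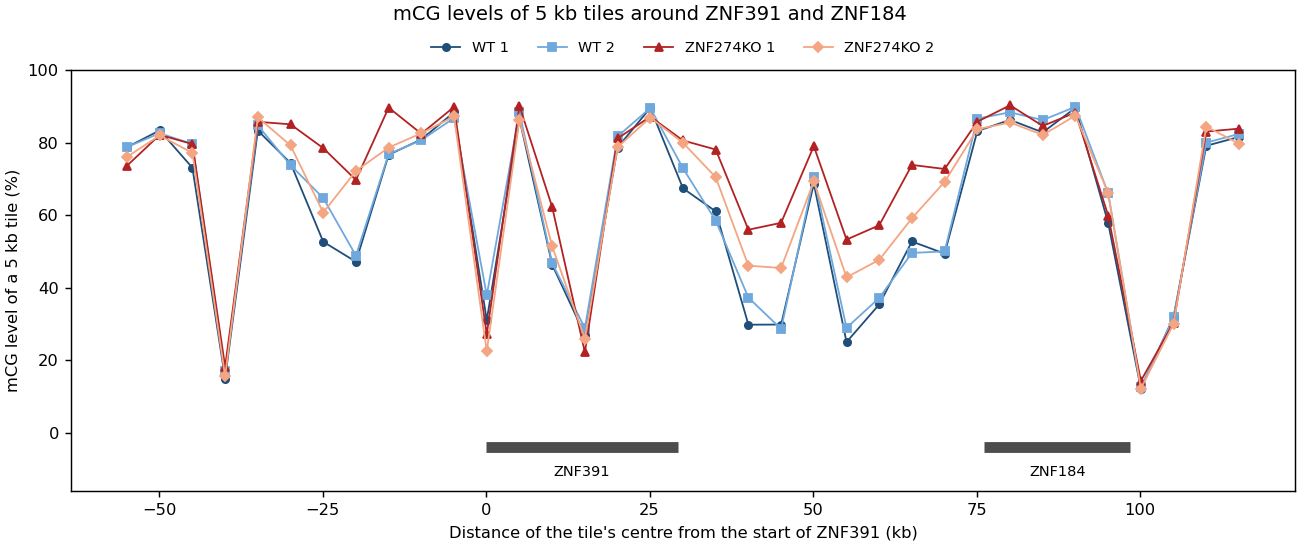
The mCG level of 5 kb tiles (%) in each of the 4 libraries is plotted against the distance of the tile centre from the start of ZNF391 in kb, with bars for ZNF391 and ZNF184. In 7 of the 8 tiles wholly between the genes the ZNF274KO libraries run above the WT libraries without overlap, against 13.5% of tiles over the genome. The whole interval is at 71.8% and 63.3% in ZNF274KO against 55.2% and 57.1% in WT. Over the body of ZNF184 the groups overlap, at 61.2% and 67.1% in WT and 66.2% and 61.8% in ZNF274KO.

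Within ZNF391 the tiles differed in direction. The tile at 27350001, inside the gene, was at 46.4% and 46.7% in WT and at 62.2% and 51.4% in ZNF274KO, and the tile at 27370001, across its end, at 67.4% and 72.9% in WT and at 80.6% and 79.9% in ZNF274KO (edgeR adjusted p = 0.813 and 0.357). The tile at 27340001, which holds the start of ZNF391, had the largest fall among tiles with at least 20 CpGs, from 31.0% and 37.9% to 27.1% and 22.4% (-9.66 points, edgeR adjusted p = 0.333). The other 4 largest falls ranged from -7.63 to -8.22 points and had edgeR adjusted p-values from 0.521 to 0.8955. They lay 129104 bases from ZNF184, 115021 bases from ZNF322, across ZNF322 and 3722 bases from ZSCAN23. In the tile 115021 bases from ZNF322 the groups overlapped and none of its 76 CpGs lay in sequence that occurs once. In the tile across ZNF322 17.6% of the CpGs did. Among the largest rises, the tile at 26720001 was at 81.0% and 54.8% in WT and at 86.2% and 85.2% in ZNF274KO, but none of its 63 CpGs lay in sequence that occurs once and the WT libraries differed by more than the groups (edgeR adjusted p = 0.721). The remaining large rise was the tile at 27380001, next to the called tile, with 29.8% and 37.2% in WT and 56.0% and 46.1% in ZNF274KO (edgeR adjusted p = 0.287).

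Promoters of the 50 histone genes, taken as 1 kb either side of the start, mostly lay at a low or at a high level, which was similar in all libraries. By their mean over the 4 libraries 27 were under 20% and 17 were over 80%, and 6 lay between. The limits of 20% and 80% were set after the values were seen. Library by library, 54% to 56% of histone promoters were under 20%, near the 52.8% to 54.5% of all promoters in the genome. Over 80% lay 34% of histone promoters, against 11.9% to 13.1% in the genome. Each of the 27 and of the 17 stayed on its side of its limit in every library. The medians of the low promoters were 2.39%, 2.60%, 1.26% and 1.68% in WT 1, WT 2, ZNF274KO 1 and ZNF274KO 2, and those of the high promoters were 93.2%, 93.0%, 93.0% and 91.2%. Across the 50 promoters the WT and ZNF274KO means correlated at r = 0.998, a description over genes that share libraries and in part share sequence, and no promoter moved by more than 8.35 points. These counts use the outermost start of each gene in the annotation. With the start of the canonical transcript, 24 of 49 promoters were low and 18 were high. The H2B gene H2BC6 changed sides, from 2.39% to 3.43% at its outermost start to over 80% in every library at its canonical start. H3C12 moved from low to intermediate, and HIST1H4B, low at its outermost start, was not among the 49.

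**Figure D3:**
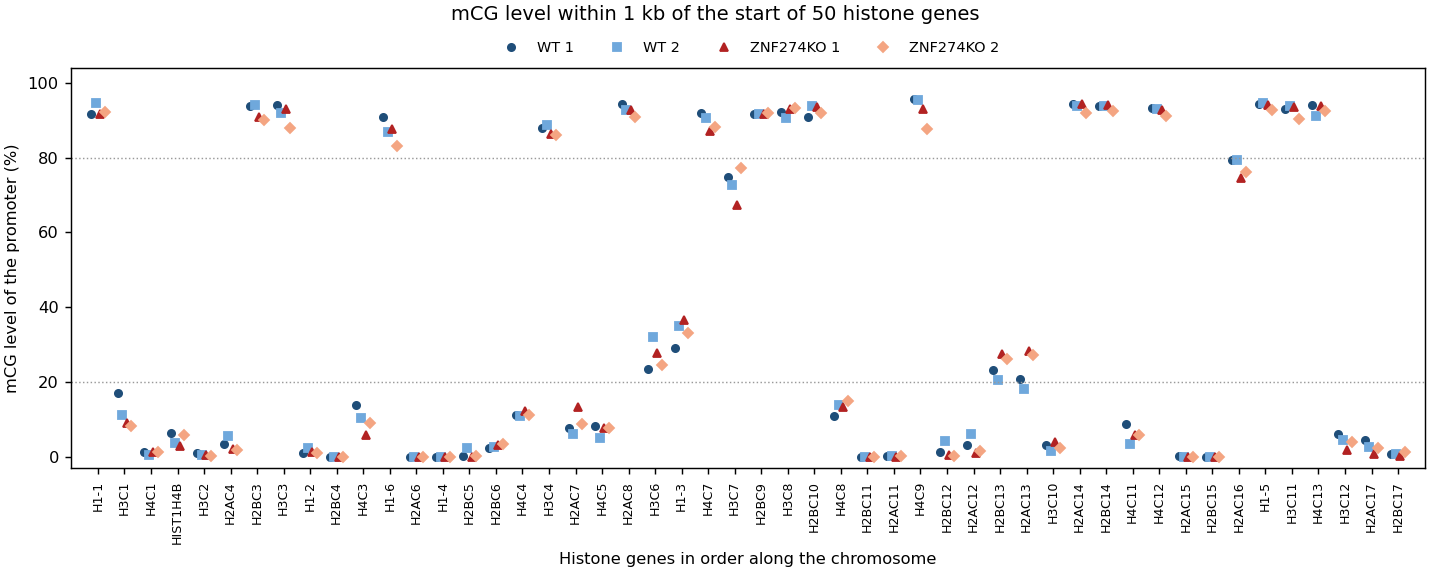
The mCG level within 1 kb of the start (%) of the 50 histone genes, in order along the chromosome, is plotted for each of the 4 libraries, with dotted lines at 20% and 80%. Of the 50 genes 27 lie under 20% and 17 over 80% in every library, and H3C6, H1-3, H3C7, H2BC13, H2AC13 and H2AC16 lie between by their means, with H2AC13 at 18.2% in WT 2.

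All 5 kinds of histone gene were found on both sides. Of the linker histone genes, whose products sit on the DNA between nucleosomes, H1-2 and H1-4 were low, H1-1, H1-5 and H1-6 were high and H1-3 was intermediate. Among genes of the core histone H2A 7 promoters were low, 2 intermediate and 2 high, and among those of its partner H2B 7 were low, 1 intermediate and 4 high. Among genes of H3, which with H4 forms the centre of the nucleosome, 4 were low, 2 intermediate and 4 high, and among H4 genes 7 were low and 4 high. The first block held 16 low and 10 high promoters, the second 4 low and 1 high, and the third 7 low and 6 high, so every block held both low and high promoters. With canonical starts 6 H2B promoters were low and 5 high, and the first block held 14 low and 11 high promoters. H2BC6 was then among the high ones. The median number of CpGs was 93 for low and 81 for high promoters.

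The lowest WT promoters were those of the H2A gene H2AC6, at 0% in both WT libraries (which allows up to 0.217% and 0.256%) and at 0.0853% and 0.161% in the ZNF274KO libraries, of the H2B gene H2BC4 (0.0724%, 0%, 0.0825% and 0.161%) and of the H2B gene H2BC11 (0.0650%, 0.151%, 0% and 0%, in the order WT 1, WT 2, ZNF274KO 1, ZNF274KO 2). The first 2 are a divergent pair and share most of their CpGs. The highest was that of the H4 gene H4C9, at 95.7% and 95.4% in WT and at 93.0% and 87.6% in ZNF274KO. Its fall of 5.21 points had an unadjusted p of 0.00849 and an adjusted p of 0.575 in edgeR. H1-5, a linker histone gene, was at 94.3% and 94.6% in WT and at 93.9% and 92.8% in ZNF274KO, and the H2A gene H2AC14 at 94.4%, 93.7%, 94.2% and 92.0% in the same order. H4C9 lies in the second block between low neighbours, with H2AC11 on one side at 0.184% and 0.334% in WT and H2BC12 on the other at 1.35% and 4.35%.

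Histone genes that point away from each other, with starts less than 400 bases apart, formed 8 pairs. The promoter windows of a pair share most of their bases, so their levels are close by construction, with a largest gap of 3.34 points, and each pair is described as a single site. The pairs H2BC4 and H2AC6, H2BC11 and H2AC11, H2BC12 and H2AC12, H2AC15 and H2BC15, H3C12 and H2BC17, and H2AC17 and H2BC17 were low. The pairs H3C12 and H2BC17, and H2AC17 and H2BC17, share the start of H2BC17 and are a single site. The pair H3C12 and H2BC17 rests on the outermost start of H3C12, since at its canonical start H3C12 was at 59.3% to 71.5%. The pair H2AC14 and H2BC14 was high and the pair H2BC13 and H2AC13 intermediate, as in the sequences printed above.

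Promoter sequences were then searched for a pair of motifs common at histone genes. In the window from 250 bases before to 50 after the start, read on both strands, the motif TATAAA was found in 34 of 50 histone promoters (68.0%), against 10.9% of all 20098 protein-coding promoters. The motif CCAAT was found in 43 (86.0%), against 35.8%. Among low promoters TATAAA was present in 70.4% and CCAAT in 81.5%, among high promoters in 58.8% and 88.2%, and among the 6 intermediate promoters in 83.3% and 100%. Differences between these classes were not tested. Of the 14 zinc finger and SCAN promoters 2 held TATAAA and 2 held CCAAT. With canonical starts 0 of these 14 held TATAAA and 4 (28.6%) held CCAAT, against 9.65% and 36.0% of all promoters. The histone shares were then 67.3% and 87.8%.

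No promoter of the region was called by edgeR. Over the genome 0.187% of promoters were called higher and 0.0607% lower, while limma called 0 promoters in the whole genome. At an unadjusted p under 0.05 edgeR gave 1 higher and 9 lower promoters, or 11.9% of the 84, against 6.05% of all promoters in the genome. These 10 belonged to histone genes, several of which share CpGs. The median difference was -0.552 points over the 50 histone promoters, 0.0531 points over the 14 zinc finger promoters and -0.207 points over all 19779 promoters tested. The smallest unadjusted p-values were those of the divergent genes H2BC12 and H2AC12 in the second block. The H2AC12 promoter was at 3.32% and 6.06% in WT and at 1.03% and 1.68% in ZNF274KO (edgeR adjusted p = 0.33), and the H2BC12 promoter at 1.35%, 4.35%, 0.592% and 0.174% (edgeR adjusted p = 0.333). The H2AC13 promoter had the largest rise, from 20.9% and 18.2% to 28.5% and 27.3% (edgeR adjusted p = 0.823). Its window holds the whole body of H2BC13, described next, so the rises of this promoter and that body share CpGs and are not separate results.

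Gene bodies, from the start to the end of a gene, gave 1 call among 84, the H2B gene H2BC13, which was higher in ZNF274KO. Over the genome 0.886% of gene bodies were called higher and 0.0302% lower, so 1 call in 84 is near the background. H2BC13 lies on the minus strand at chr6:27775257-27775707 and is 451 bases long. Its 29 CpGs were at 16.99% in WT 1 and 17.2% in WT 2, against 37.7% in ZNF274KO 1 and 33.4% in ZNF274KO 2. The WT libraries were almost equal and both ZNF274KO libraries lay well above them, with a rise of 18.5 points (edgeR adjusted p = 0.0203) that limma also called (adjusted p = 0.0425). It was not called without ZNF274KO 1 (16.3 points, edgeR adjusted p = 0.344) or ZNF274KO 2 (20.6 points, edgeR adjusted p = 0.0812).

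At single CpGs of H2BC13 the depth was 6 to 21 reads per library, and neighbouring CpGs of so short a gene are covered by the same reads. The reads are therefore fewer than the sum over CpGs, and how far this lowers the p was not tested. The mean over libraries was higher in ZNF274KO at 28 of the 29 CpGs, which describes how the rise was spread over the gene and adds no support to the call. Over the 15 CpGs in sequence that occurs once the body rose from 17.8% and 19.02% to 37.6% and 35.3%, or by 18.0 points. Neither of the stretches that adjoin the gene was higher in ZNF274KO by its mean. The 300 bases between H2BC13 and H2AC13 printed above had a difference of -5.33 points with overlapping groups. The kb past the end of the gene, with 33 CpGs, was at 35.3% and 32.4% in WT and at 31.6% and 29.1% in ZNF274KO, a difference of -3.51 points (exact permutation p = 0.333). The body of the H2A gene H2AC13 was at 17.9% and 15.97% in WT and at 18.1% and 23.3% in ZNF274KO. It was thus higher without overlap, by 3.75 points, but not called (edgeR adjusted p = 0.789). Only 4 of its CpGs lay in sequence that occurs once. Over these the groups overlapped, at 23.8% and 21.4% in WT and at 23.1% and 23.5% in ZNF274KO.

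**Figure D4:**
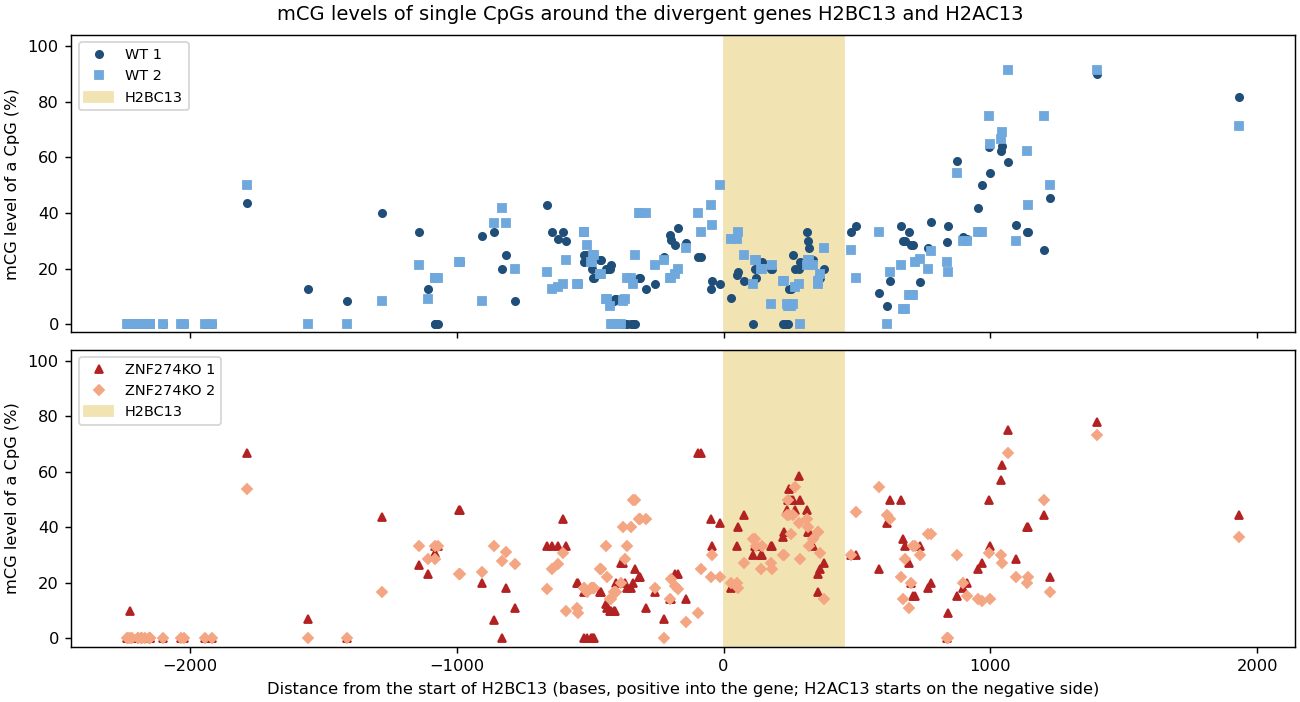
The mCG level of single CpGs (%) is plotted against distance in bases from the start of H2BC13, positive into the gene, for the WT libraries (upper panel) and the ZNF274KO libraries (lower panel), with the gene shaded. Inside the gene the ZNF274KO libraries, at 37.7% and 33.4% over the body, lie above the WT libraries at 16.99% and 17.2%.

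Among the other 49 histone bodies none was called in the main fit. H2BC12, the H2B gene of the second block, came nearest, at 2.06% in WT 1, 10.7% in WT 2 and 0% in both ZNF274KO libraries (which allows up to 0.932% and 0.686%) over 41 CpGs, 19.5% of them in sequence that occurs once (edgeR adjusted p = 0.0833). The WT libraries differed from each other by more than WT 1 did from the ZNF274KO libraries. A fit that paired libraries by replicate number, a pairing the labels do not state, called H2BC12 lower and HIST1H4B higher (edgeR adjusted p = 0.000342 and 0.0265). HIST1H4B was at 0% in both WT libraries and in ZNF274KO 1, and at 5.22% in ZNF274KO 2. The groups thus overlapped, and its call rests on ZNF274KO 2. The median difference over the 50 histone bodies was -0.301 points, against -0.93 over the 19858 bodies of the genome. At an unadjusted p under 0.05 there were 5 higher and 5 lower bodies in the region, each of a histone gene, or 11.9% of the 84 against 7.20% of all bodies in the genome.

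The 14 zinc finger and SCAN genes encode proteins of the kind described above, and none of their bodies or promoters was called by edgeR. Their bodies had differences from -4.09 to 1.48 points, with a median of -1.38 points. This set leaves out ZKSCAN8P1, counted among the other genes. Its body was at 64.4% and 71.9% in WT and at 73.2% and 76.1% in ZNF274KO, higher without overlap by 6.43 points (edgeR adjusted p = 0.715). The counts that follow are again for the 14 genes. Over the spans of the canonical transcripts the median was -0.697 points, ZNF391 changed by -2.08 points, and ZSCAN16, ZSCAN9 and ZSCAN31 by 0.140, 0.127 and 0.156 points. At an unadjusted p under 0.05 there were 0 bodies and 0 promoters, and limma called 0 of these bodies. ZNF274KO was lower without overlap in 5 bodies (35.7%) and higher in 0, against 30.5% and 9.09% of all bodies tested in the genome.

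The KRAB-bearing genes were ZKSCAN8, ZKSCAN4, ZKSCAN3, ZNF184 and PGBD1, which encode proteins with a repressor-recruiting domain. The body of ZKSCAN3 was at 71.0% and 68.5% in WT and at 68.3% and 69.1% in ZNF274KO. ZKSCAN8 was at 73.8%, 64.4%, 69.8% and 67.6%, and ZKSCAN4 at 50.8%, 54.2%, 53.7% and 53.4%. In all 3 the groups overlapped, and for ZKSCAN8 and ZKSCAN4 both ZNF274KO libraries lay between the WT libraries. PGBD1, which encodes a SCAN protein with a transposase-like part, was at 69.8% and 70.3% in WT and at 69.1% in both ZNF274KO libraries. ZNF184 was at 61.2%, 67.1%, 66.2% and 61.8%, so that its body did not take part in the rise between it and ZNF391. The promoters of these 5 genes lay between 0.968% and 6.37% in every library.

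Of the SCAN genes without KRAB, ZSCAN16, ZSCAN9, ZSCAN26, ZSCAN12 and ZNF165 had body differences from -2.38 to 1.48 points with adjusted p-values of 0.839 or more in edgeR. ZSCAN31 had the lowest body level of the zinc finger part together with ZNF165, at 45.5% and 43.4% in WT and at 43.8% and 41.2% in ZNF274KO. ZSCAN23 had the largest body difference among the 11 zinc finger and SCAN genes of the zinc finger part, -3.06 points, from 71.6% and 69.3% to 67.4% and 67.5% (edgeR adjusted p = 0.793). ZNF322 and ZNF391, in the histone part, were on neither the SCAN nor the KRAB list. ZNF391 was at 56.3% and 54.1% in WT and at 53.1% and 49.1% in ZNF274KO (-4.09 points, edgeR adjusted p = 0.731), and ZNF322 at 74.1%, 72.1%, 71.8% and 69.2% (-2.56 points, edgeR adjusted p = 0.806).

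Zinc finger promoters, unlike histone promoters, were low with 3 exceptions. ZSCAN16 was at 85.7% and 88.6% in WT and at 89.4% and 85.6% in ZNF274KO, on 19 CpGs of which 42.1% lay in sequence that occurs once. ZSCAN31 was at 42.4%, 50.6%, 42.7% and 41.9%, and ZSCAN23 at 32.8%, 26.9%, 26.4% and 24.2%. The other 11 did not exceed 12.7% in any library. The exceptions stood out in all 4 libraries, and their differences of 0.370, -4.21 and -4.61 points had adjusted p-values from 0.925 to 0.994 in edgeR. With the start of the canonical transcript in place of the outermost start, ZSCAN16 was at 8.01%, 13.7%, 8.73% and 9.90% and ZSCAN31 at 8.59%, 8.25%, 10.2% and 8.05%, so that of the 3 only ZSCAN23 remained above 20%. The high levels of ZSCAN16 and ZSCAN31 thus belong to the other starts in the annotation.

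**Figure D5:**
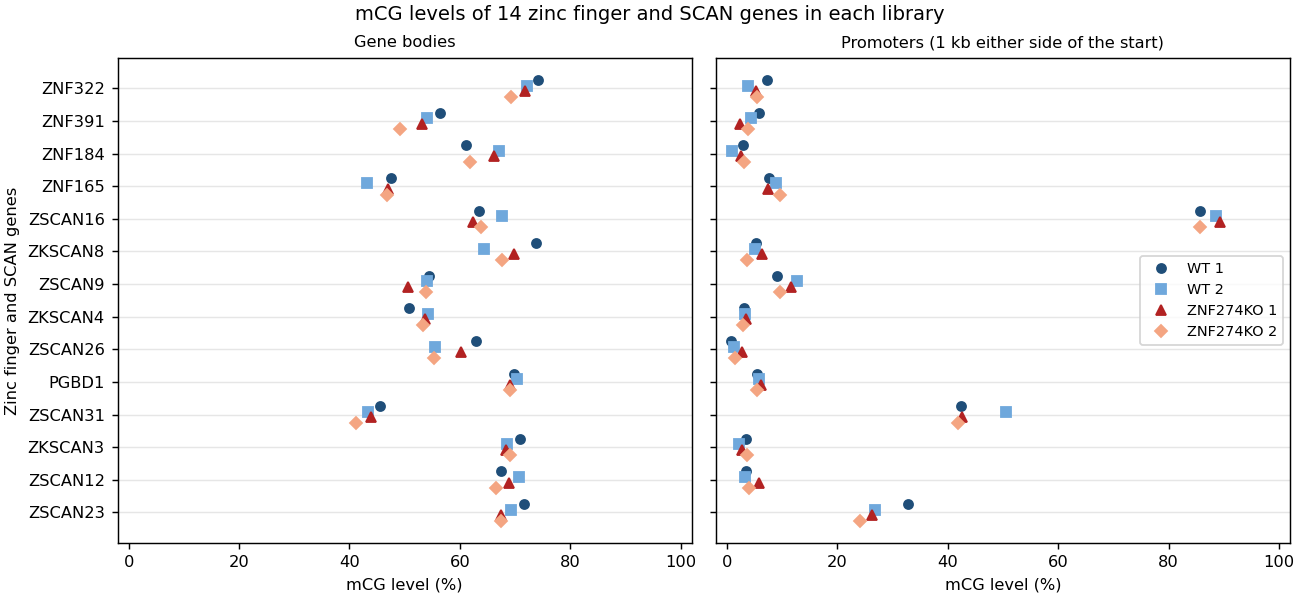
The mCG level (%) of the bodies (left) and promoters (right) of the 14 zinc finger and SCAN genes is plotted for each of the 4 libraries, in order along the chromosome. Body differences between the groups run from -4.09 to 1.48 points, and the promoters of ZSCAN16, ZSCAN31 and ZSCAN23 stand above the others in all libraries.

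The last 2 kb of each gene, which for a zinc finger gene generally holds the sequence that encodes the fingers, were examined after the other values had been seen. Of the 14 zinc finger genes 13 could be tested and none was called by edgeR. Over the genome 0.801% of such windows were called higher and 0.0510% lower. ZNF391 had the largest change, from 58.8% and 58.3% to 79.1% and 68.3% on 7 CpGs (edgeR adjusted p = 0.651), next to the interval that rose. ZSCAN26 changed from 86.6% and 82.2% to 72.0% and 80.4% (edgeR adjusted p = 0.636). The 2 windows called in the region were those of H2BC13 and, lower, of H2BC12, which for such short genes are the gene bodies described above, tested here among other windows (edgeR adjusted p = 0.00245 and 0.00285).

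The zinc finger bodies of 6p22 were compared with those of chromosome 19, where many zinc finger genes lie in clusters. The 14 genes of 6p22 together were at 61.9% in WT 1 and 61.2% in WT 2, against 60.8% in ZNF274KO 1 and 59.1% in ZNF274KO 2. The 257 zinc finger genes of chromosome 19, ZNF274 left out, were at 56.8%, 56.3%, 69.3% and 65.1%. Thus 6p22 stood above chromosome 19 in both WT libraries and below it in both ZNF274KO libraries. The difference between the sets was 4.99 points ± 0.0878 in WT and -7.29 ± 1.75 in ZNF274KO (SD, n = 2). It changed by -12.3 points, several times the spread between libraries (exact permutation p = 0.333, two-sided, which no result here can go below).

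Butyrophilin genes, which encode membrane proteins that take part in regulating T cells, had body differences with a median of -2.24 points, and 0 of 6 bodies and 0 of 6 promoters were called by edgeR. The largest of these was BTN2A1, from 74.4% and 72.5% to 72.3% and 68.6% (-2.98 points, edgeR adjusted p = 0.772). Of the 14 other genes, among them the iron regulator HFE, the ribosome assembly factor ABT1 and the peroxidase genes GPX5 and GPX6, none was called either, and the median body difference was -0.391 points. HFE, which lies inside the annotated span of H2BC4, was at 76.5%, 74.4%, 74.5% and 74.8% in WT 1, WT 2, ZNF274KO 1 and ZNF274KO 2.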

How the data were processed

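The data are 4 EM-seq libraries of HEK293T cells, 2 WT and 2 ZNF274KO. The deposited files hold read counts per CpG, methylated and unmethylated on each strand, which the authors made with Msuite2 and HISAT2 on hg19 with rDNA added. Whether reads were filtered by mapping quality or duplication is not given in the sources used here. Groups came from the sample labels.

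CpGs of autosomes and X were used, and the level was methylated over all reads with both strands summed. Counts were summed per library over tiles of 5 kb, over gene bodies and over promoters of 1 kb either side of the start, keeping those with at least 3 CpGs and 20 reads in every library. A read is counted at each CpG it covers, so counts are not independent molecules. Each set was fitted over the whole genome in edgeR 4.0.16 (R 4.3.3) by its quasi-likelihood F-test, with methylated and unmethylated counts, library and group, and called at a Benjamini-Hochberg adjusted p of 0.05. limma 3.58.1 on log2 ratios was an alternative. Single levels were compared by two-sided exact permutation tests over libraries. Tables and figures were made with Python 3.11.15, numpy 2.4.6, pandas 2.3.3 and matplotlib 3.10.9.

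The members and lists were chosen with earlier results of these data known. Named were the zinc finger and SCAN genes chosen by symbol and every called gene or tile. Also named were the 3 highest and 3 lowest WT histone promoters, and the 5 largest rises and falls among tiles with at least 20 CpGs. Genes and tiles named beyond these were chosen after their values were seen. On simulated data with 200 regions raised by 30 points, 88.5% of tiles (5 false calls among 563537), 100% of bodies (18 among 19858) and 92.5% of promoters (2 among 19779) were recovered. The raised regions were neither near the floor nor at high levels, and the step exceeded the rises of the called tiles and gene body. Recovery of falls and of smaller changes was not tested. Simulated regions of similar level were given the same spread between replicates, so the false calls hold for that setting only. The share of false calls in the real data was not tested. Median depth was 8 to 10 reads per CpG.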

Additional observations from a re-analysis of the deposited data

How the results depend on the processing

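The 6p22 results rest on 2 libraries a group, and no exact test over libraries could go below 0.333. Of 494 tiles of 5 kb 2 were called, against 2740 of 563537 over the genome, and limma called 0 against 856. Tiles of 10 kb gave 0 of 249 against 1424 of 282606 over the genome, and tiles of 2 kb gave 4 of 1216 against 6221 of 1388172. Of 84 gene bodies 1 was called, against 182 of 19858 over the genome. There limma called 58, and 2 here, H2BC13 and, lower, H1-4. The H1-4 body lay near the floor, at 0.248% and 0.236% in WT and at 0% in both ZNF274KO libraries. Its difference was -0.242 points. Of 84 promoters 0 were called, against 49 of 19779 over the genome. The calls of the tiles and of H2BC13 depended on single libraries, as given above. The replicate numbers of the labels are not stated to mark a shared culture or day, and the replicate differences correlated at -0.108 over 563537 tiles. With the replicate block 10 tiles (6 higher and 4 lower), 3 gene bodies (H2BC13 and HIST1H4B higher, H2BC12 lower) and 2 promoters (both lower, H2BC12 and H2AC12) of the region were called. Of these, the HIST1H4B body was above 0% in ZNF274KO 2 alone. Over the genome the fit with the replicate block called 4789 of 563537 tiles, 277 of 19858 bodies and 161 of 19779 promoters. With the numbers crossed, a pairing chosen after seeing the data, the counts were 10, 3 and 2, against 6612, 269 and 164 over the genome. The differences of the histone and zinc finger parts, -0.625 and -0.861 points, turned to 0.584 and 0.348 points relative to the rest of chromosome 6. Leaving out each library they ranged from -1.43 to 0.179 and from -1.84 to 0.120 points, and the zinc finger part minus the histone part from -0.698 to 0.226 points. The contrast between zinc finger bodies of 6p22 and chromosome 19 ranged from -13.5 to -11.0 points. Canonical transcripts, leaving out libraries for the interval between ZNF391 and ZNF184, CpGs in sequence that occurs once and the last 2 kb of genes were alternatives chosen after seeing the data. At a median depth of 8 to 10 reads per CpG, differences at single CpGs were not tested.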
